A study of Mus musculus with 8 samples.

Results

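The genes described here are 10 imprinted genes with known activity in the hypothalamus: Magel2, Ndn, Snrpn, Peg3, Peg10, Dlk1, Meg3, Nnat, Gnas and Cdkn1c. They were chosen by name, with earlier results of these data known, and every probe carrying one of these names was taken. They made up 10 of 27435 genes measured and 21 of 55681 probes. The arrays held labelled neurons of the dorsomedial nucleus (DMH), the ventromedial nucleus (VMH) and the arcuate nucleus (Arc), hypothalamic nuclei that take part in the control of feeding, body temperature and energy use. The DMH was represented by 3 samples, the VMH by 3 and the Arc by 2, each on its own 1-colour array. All samples came from 2-month-old female mice that carried Nkx2-1-CreERT2 and ROSA-loxSTOPlox-ZsGreen1 and had received tamoxifen, so that ZsGreen marked cells in which Nkx2-1 was active at the time of injection. Fluorescent neurons were collected under a laser microdissection microscope, so that a sample is a pool of neurons of 1 nucleus. Neurons without the label were not targeted, and no group of another age, sex or genotype was compared.

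No label links a sample to an animal. Samples may therefore share animals. Where samples of 1 nucleus did, the p-values come out too small. Where samples of different nuclei did, the unpaired tests leave that pairing unused. The p-values measure only the spread between these samples, part of which may be technical. On each array between 72.41% and 78.74% of probes were well above background. The signal at the 75th percentile was 2107.2 to 3042.1 on DMH arrays, 1866.1 to 2035.5 on VMH arrays and 1805.5 to 1818.2 on Arc arrays, so the nuclei also differed in overall brightness. Neuronal markers of the nuclei were also picked with earlier results of these data known, so their levels are only a description. All 9 DMH markers averaged higher in the DMH than in the VMH or the Arc. All 8 measured VMH markers averaged highest in the VMH, though for Nptx2 the DMH minus VMH difference was only -0.0042, and 9 of 10 Arc markers averaged highest in the Arc, the exception being Prlr at 1.16 in the VMH and 0.53 in the Arc. All levels below are log2 signals minus the log2 of that array's 75th percentile, a scale on which 0 is the 75th percentile and 1 unit is a doubling of signal. Levels of different genes come from different probes and are not set against each other.

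Genomic imprinting is the expression of a gene from the copy inherited from only 1 parent, set by methylation marks laid down in the egg or sperm. Imprinted genes lie in clusters, and each cluster is governed by an imprinting control region. Many of them act in growth, in the placenta and in the hypothalamic control of feeding, hormones and maternal care. Loss of the paternal copies of the cluster that holds Magel2, Ndn and Snrpn causes Prader-Willi syndrome in humans, in which the hypothalamus is affected. The arrays measured RNA from both parental copies together, so the values are total levels and say nothing of which copy was active. In bulk samples such as these, fewer cells of a type and less RNA per cell cannot be told apart.

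Several of these genes were read by more than 1 probe, and the probes matter here because they show whether a difference belongs to the gene or to a single stretch of its RNA. The probes of Peg10, Gnas and Dlk1 and 2 of the 3 probes of Meg3 are shown, since the differences described below turn on them. For the coding genes the first 30 of 60 bases are given, and for Meg3, a long noncoding RNA, all 60 bases. The listed positions of Dlk1 probe 2 span 61 bases, though the probe has 60. Positions are on mouse build mm9, on the plus strand, and probes of a gene are numbered by position. Whether a probe lies in coding sequence or in an untranslated part was not determined here.
Peg10 probe 1, chr6:4704589-4704648, from base 738 of transcript variant 1: tatcccaaactttttctccgatgatgactg
Peg10 probe 2, chr6:4709867-4709926, from base 6016 of transcript variant 1: ttagatcacataggataagttagatcaaat
Gnas probe 1, chr2:174122337-174122396, on an Ensembl transcript of the locus: atgggggacattgaagggatttgctggagc
Gnas probe 2, chr2:174125482-174125541, on transcript variant 6: acttcttcacccgagccttcggaagctgct
Gnas probe 3, chr2:174163501-174163560, on transcript variant 4: ctgcacgtctttcttcctatgactctacaa
Gnas probe 4, chr2:174171933-174171992, on transcript variant 1: taagagtgaaacgtaattgtacaagcagtt
Dlk1 probe 1, chr12:110698502-110698561, on transcript variant 1: aatatcatcttccccgagaagattgacatg
Dlk1 probe 2, chr12:110698721-110698781, on transcript variant 1: tacacatattgtcttgtgttgctggtgcca
Meg3 probe 2, chr12:110799558-110799617, on transcript variant 6: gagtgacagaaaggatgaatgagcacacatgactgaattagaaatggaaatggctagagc
Meg3 probe 3, chr12:110809678-110809737, on transcript variant 5: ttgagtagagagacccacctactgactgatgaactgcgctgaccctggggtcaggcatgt

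All 10 genes were detected in all 3 nuclei. Each of the 21 probes was well above background on all 8 arrays, and none was saturated, so no level of these probes is a bound. Some cell type markers, such as Grp, Mog, Nes and Vim, were not well above background on every array. Magel2, Ndn, Snrpn, Peg3, Dlk1, Meg3, Nnat and Gnas, 8 of the 10, lay above the 75th percentile on every array. Peg10 lay above it on 6 of 8 arrays and Cdkn1c on 2 of 8. Where a gene had several probes, the brightest stood for it, and the others are described beside it.

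None of the 10 genes passed the test for a difference among the nuclei (limma, F test, adjusted p under 0.05 over all genes), against 1.68% of the 27419 genes tested. At an unadjusted p under 0.05 the F test picked 1 of the 10, Peg10, against 17.7% of all genes. No gene passed in any pair of nuclei either, where the background was 1.23% of genes between DMH and VMH, 0.416% between DMH and Arc and 0.977% between VMH and Arc. At an unadjusted p under 0.05 these pairs picked 1, 0 and 3 of the 10 genes, against 13.2%, 16.6% and 14.2% of all genes. Fitted probe by probe, none of the 21 probes passed the F test, against 1.39%, or any pair, against 0.981%, 0.434% and 0.783% of the 41485 probes tested. A count of 0 in a group of 10 is what such low shares would mostly give, so it does not set these genes apart from the rest.

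The sizes of the differences were mostly small. Of the 30 differences, 10 genes in 3 pairs of nuclei, 27 were under 1 log2 unit and 3 were at least 1. A difference of at least 1 was met by 7.82% of all genes between DMH and VMH, 11.8% between DMH and Arc and 10.5% between VMH and Arc. The 3 were Peg10 in DMH minus VMH and in VMH minus Arc, and Cdkn1c in DMH minus Arc. For 14 of the 30 the 95% interval lay wholly within 1 log2 unit of 0, which bounds the difference there, and for the other 16 a larger difference was not excluded by the interval. The median difference over the 10 genes was 0.0079 for DMH minus VMH, 0.11 for DMH minus Arc and -0.15 for VMH minus Arc, beside -0.043, -0.050 and -0.029 over all genes.

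**Figure D1:**
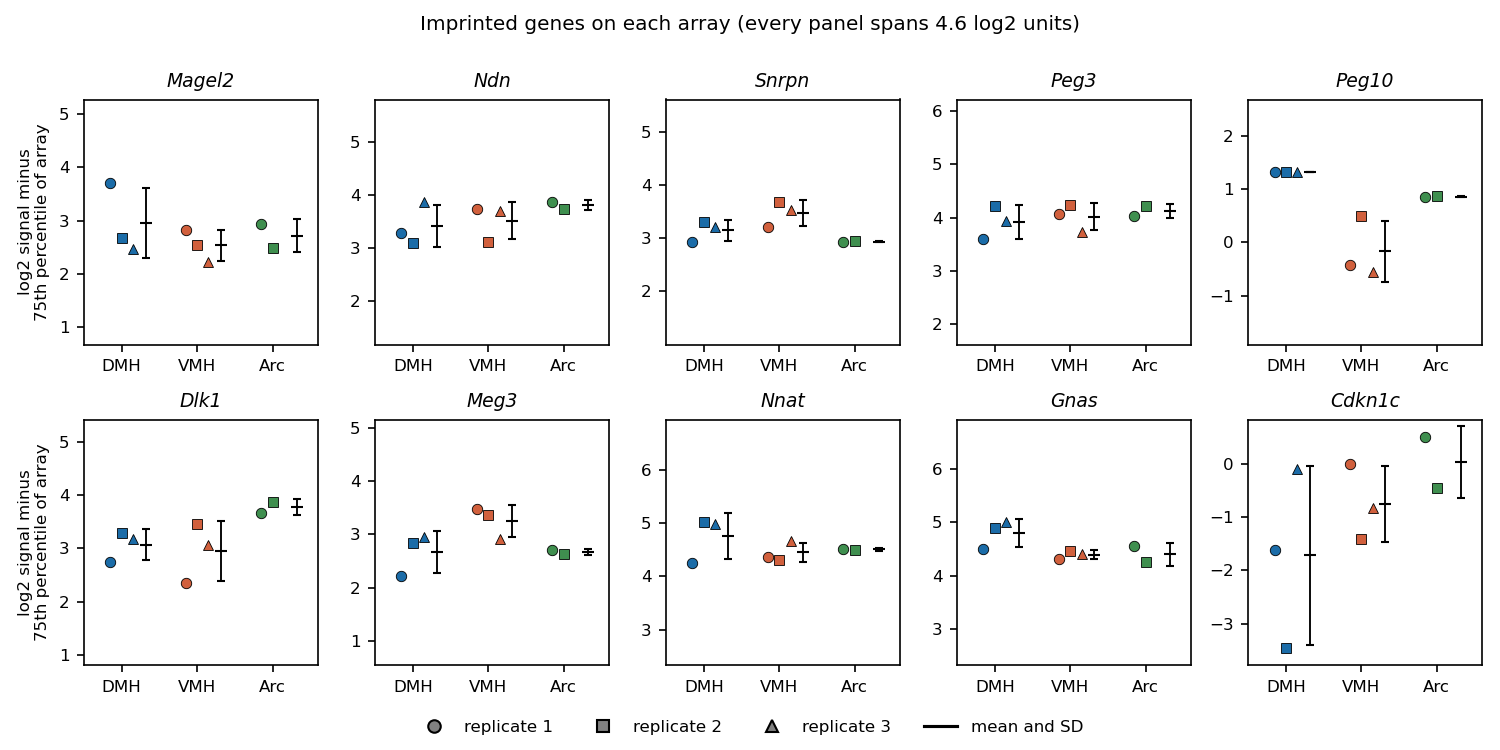
Log2 signal minus the 75th percentile of the array (vertical axis, 4.6 units in every panel) for the 10 imprinted genes in DMH, VMH and Arc. Points are arrays, with a shape for each replicate number, and bars are the mean and SD of 3 DMH, 3 VMH and 2 Arc arrays; the 3 Peg10 points of the DMH lie above all other Peg10 points, and Cdkn1c has the widest scatter.

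**Figure D2:**
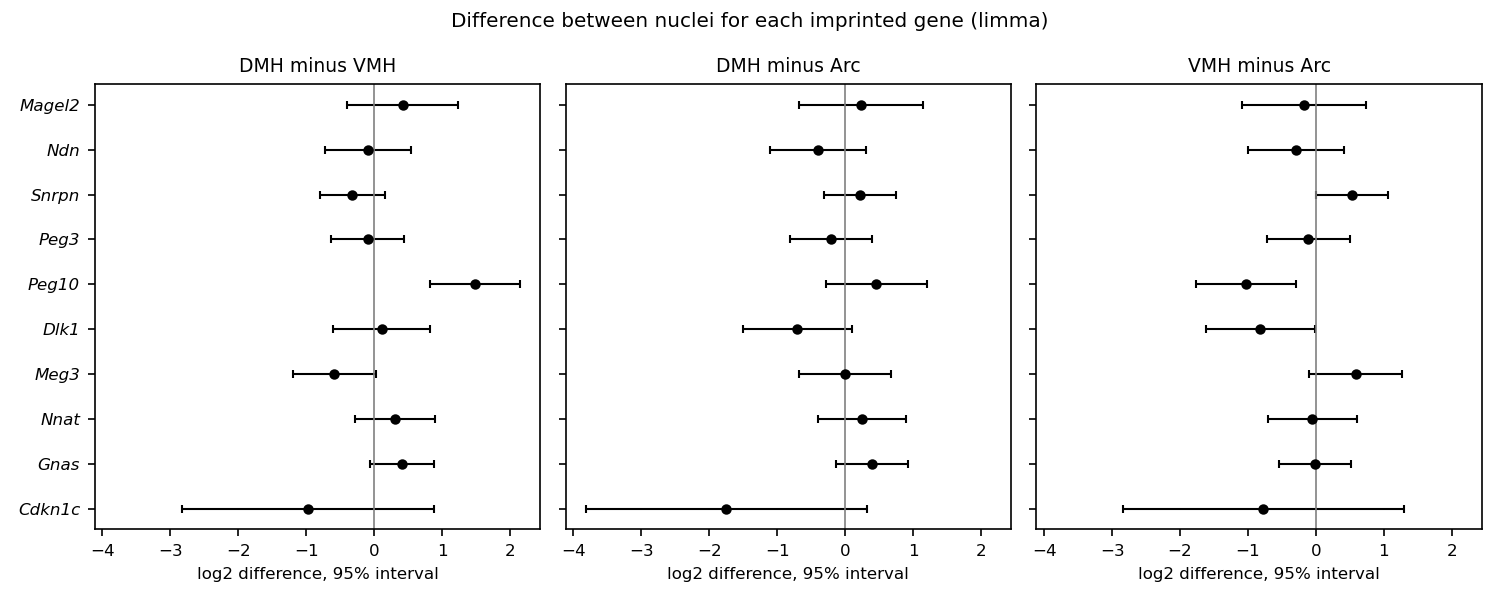
Log2 difference between nuclei with its 95% interval from limma (horizontal axes) for each of the 10 genes, in panels for DMH minus VMH, DMH minus Arc and VMH minus Arc. Of 30 intervals 4 leave out 0, those of Peg10 in DMH minus VMH and of Snrpn, Peg10 and Dlk1 in VMH minus Arc, and none of the 4 passed the test adjusted over all genes.

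Peg10 had the most distinct pattern among the nuclei. It is a paternally expressed gene derived from a retrotransposon, whose gag-like and pol-like protein is needed for the placenta. Its level was 1.316, 1.320 and 1.325 in the DMH arrays, -0.42, 0.49 and -0.57 in the VMH arrays and 0.85 and 0.87 in the Arc arrays. All DMH arrays lay above all Arc arrays, and both Arc arrays lay above all VMH arrays. Peg10 averaged 1.32 ± 0.0041 in the DMH and -0.17 ± 0.57 in the VMH (SD, n = 3 each), with 0.86 ± 0.012 in the Arc (SD, n = 2). The DMH minus VMH difference was 1.49 ± 0.28 (SE; 2.80-fold; 95% interval 0.83 to 2.15), with an adjusted p of 0.0606 in limma, just short of the threshold. The spread between the 3 DMH arrays was far smaller than the residual SD of this gene, 0.36, which the VMH arrays mostly set. VMH replicate 2 lay closest to the other nuclei. Without it the DMH minus VMH difference was 1.81 and passed the test (limma, adjusted p = 0.0248). In all, 5 of 18 alternative settings called Peg10 here, and the rest of the 5 kept this sample. The call thus turns both on this sample and on the processing.

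The other differences of Peg10 were smaller. VMH minus Arc was -1.02 ± 0.32 (SE; 95% interval -1.76 to -0.29; limma, adjusted p = 0.220), which puts Peg10 in the Arc above the VMH by 2.03-fold. DMH minus Arc was 0.46 ± 0.32 (SE; 95% interval -0.27 to 1.20; limma, adjusted p = 0.512), so on this probe these neighbours in the order did not differ beyond their error. The second Peg10 probe, at the far end of the transcript, had 0.57, 0.37 and 0.12 in the DMH, -1.44, -0.82 and -2.28 in the VMH and -0.83 and -0.52 in the Arc. It too was highest on all DMH arrays, while VMH replicate 2 and the Arc arrays lay close together. Its DMH minus Arc difference was 1.03 ± 0.41 (SE), with a 95% interval of 0.081 to 1.98 that left out 0. This difference did not pass the test (limma over all probes, adjusted p = 0.285). Its DMH minus VMH difference was 1.87 ± 0.37 (SE; limma over all probes, adjusted p = 0.0715). With the mean of both probes in place of the brightest, the difference was 1.68 and passed the test (limma, adjusted p = 0.0479).

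Markers of other cells also varied with the nucleus, and their part in the Peg10 result was not tested. Summed signals below are relative to the 75th percentile and not on a log scale. A sum is thus weighted to the brightest markers of its list, and its order need not hold for the others. Such bright markers were Snap25 (pan-neuronal, mean log2 level 7.08 to 7.70 across nuclei), Aldoc (astrocytes, 5.17 to 5.48) and Csf1r (microglia, 4.15 to 4.65). The 6 pan-neuronal markers, all of them measured, summed to 187 to 226 in the DMH, 250 to 301 in the VMH and 274 to 284 in the Arc. Their mean log2 level was 3.93 to 3.97 in the DMH, 4.27 to 4.36 in the VMH and 3.65 to 3.75 in the Arc, so the nucleus with the lowest value differs between the sum and the mean. Of 8 oligodendrocyte markers all were measured, with sums of 14.4 to 20.4 in the DMH, 18.6 to 28.7 in the VMH and 8.96 to 17.5 in the Arc. For astrocytes 7 of 8 markers were measured, as Gja1 did not pass the filter on dim probes, and their sums were 41.3 to 52.7 in the DMH, 49.0 to 59.6 in the VMH and 47.0 to 54.1 in the Arc. Marker by marker, 5 of the 7 astrocyte markers averaged higher in the DMH than in the VMH (median log2 difference 0.45, against -0.043 over all genes) and 6 of 7 higher than in the Arc (median 0.49, against -0.050). Gjb6, a connexin of astrocytes, passed the F test (limma, adjusted p = 0.0427), with all DMH arrays above all other arrays. The 7 microglial markers summed to 20.8 to 25.9 in the DMH, 23.9 to 27.5 in the VMH and 29.7 to 32.7 in the Arc. Marker by marker, 4 of these 7 averaged higher in the DMH than in the VMH (median log2 difference 0.46). In DMH against Arc 3 of 7 were higher (median -0.50), and in VMH against Arc all 7 were lower. The 7 tanycyte and ependymal markers summed to 2.21 to 3.71 in the DMH, 3.82 to 4.63 in the VMH and 4.76 to 5.47 in the Arc. Marker by marker, 5 of the 7 averaged lower in the DMH than in the VMH, and 5 of 7 lower than in the Arc. These counts include Nes and Vim, well above background on 0 of 3 and 1 of 3 DMH arrays, so their DMH levels are uncertain. Nes was also well above background on only 1 of 3 VMH arrays. Ccdc153 averaged highest in the DMH. The F test called 2 of the 7, Col23a1 and Crym (limma, adjusted p = 0.0435 and 0.0489). Col23a1 averaged lowest in the DMH and highest in the Arc. Crym averaged highest in the VMH, and was lower in the DMH than in the VMH (limma, adjusted p = 0.0467). Endothelial and mural markers, 5 of 7 measured without Rgs5 and Pdgfrb, summed to 2.50 to 3.38 in the DMH, 3.09 to 3.38 in the VMH and 3.91 to 4.32 in the Arc. Glial and vascular RNA was thus present in all nuclei. The DMH neuron markers, picked with earlier results known, summed to 36.7 to 43.2 in the DMH, 5.32 to 6.57 in the VMH and 7.33 to 7.79 in the Arc. On the brightest Peg10 probe the Arc arrays lay between those of the DMH and the VMH. On the second Peg10 probe the VMH and Arc arrays overlapped. A link between Peg10 and these markers was not tested.

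The genes of the Prader-Willi region differed little. Magel2 and Ndn encode MAGE family proteins: MAGEL2 takes part in the sorting of vesicles and hypothalamic neuropeptides, and necdin acts in neuronal survival and differentiation. Magel2 was 3.71, 2.68 and 2.47 in the DMH, 2.82, 2.54 and 2.23 in the VMH and 2.94 and 2.49 in the Arc. Ndn was 3.28, 3.10 and 3.87 in the DMH, 3.73, 3.11 and 3.70 in the VMH and 3.87 and 3.74 in the Arc. For Magel2 the nuclei overlapped in every pair, and DMH replicate 1 stood above all other arrays; without it, DMH minus Arc was -0.14 instead of 0.24. Both Arc arrays of Ndn lay above the VMH arrays, with a VMH minus Arc difference of -0.30 ± 0.31 (SE; limma, adjusted p = 0.721). DMH minus VMH was 0.42 ± 0.35 for Magel2 and -0.097 ± 0.27 for Ndn (SE; limma, adjusted p = 0.649 and 0.908), and without DMH replicate 1 it was 0.043 for Magel2.

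Snrpn encodes SmN, a splicing protein of the neuronal spliceosome. It was 2.93, 3.31 and 3.20 in the DMH, 3.20, 3.67 and 3.53 in the VMH and 2.93 and 2.94 in the Arc. All VMH arrays lay above both Arc arrays, by 0.54 ± 0.23 (SE; 95% interval 0.0045 to 1.07; limma, adjusted p = 0.350). DMH minus VMH was -0.32 ± 0.20 (SE; limma, adjusted p = 0.541). The 2 further Snrpn probes were also higher on average in the VMH than in the Arc, by 0.33 and 0.40, and neither passed. Peg3 encodes a zinc finger protein, and mutant mothers that lack it care poorly for their young. It was 3.60, 4.22 and 3.94 in the DMH, 4.07, 4.24 and 3.74 in the VMH and 4.04 and 4.21 in the Arc, with overlap in every pair. Its further probe had the opposite sign in DMH minus VMH, 0.097 against -0.097 for the brightest, both with intervals across 0, so its order between these nuclei is not settled.

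Dlk1 and Meg3 lie in the same imprinted cluster and are expressed from opposite parental copies. Dlk1, the paternal one, encodes a transmembrane protein related to Notch ligands that restrains the differentiation of fat cells. It was 2.74, 3.29 and 3.18 in the DMH, 2.35, 3.46 and 3.06 in the VMH and 3.67 and 3.88 in the Arc. Both Arc arrays lay above every array of the other nuclei. The difference was -0.71 ± 0.35 for DMH minus Arc and -0.82 ± 0.35 for VMH minus Arc (SE; limma, adjusted p = 0.357 and 0.343), or 1.63-fold and 1.76-fold higher in the Arc. The dimmer Dlk1 probe had 1.72, 2.00 and 2.26 in the DMH, 1.63, 2.13 and 2.04 in the VMH and 2.96 and 2.79 in the Arc. Here too the Arc arrays stood above the rest, by -0.89 ± 0.26 for DMH minus Arc and -0.94 ± 0.26 for VMH minus Arc (SE; limma over all probes, adjusted p = 0.185 for each). With 2 Arc arrays, the non-overlap of Dlk1 rests on few samples.

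Meg3, the maternally expressed noncoding RNA of the cluster, had a different order. It was 2.21, 2.84 and 2.96 in the DMH, 3.48, 3.37 and 2.91 in the VMH and 2.71 and 2.63 in the Arc. The VMH arrays all lay above the Arc arrays, and VMH replicate 3 fell among the DMH arrays. DMH minus VMH was -0.59 ± 0.26 and VMH minus Arc was 0.58 ± 0.29 (SE; limma, adjusted p = 0.392 and 0.419). On average the VMH was highest for each of the 3 Meg3 probes. For Meg3 probe 2 the DMH arrays were at 2.24, 2.26 and 2.18, the VMH arrays at 3.07, 2.53 and 2.55 and the Arc arrays at 2.25 and 2.67. Its DMH minus VMH difference was -0.49 ± 0.23, and that of probe 3 was -0.32 ± 0.28 (SE; limma over all probes, adjusted p = 0.424 and 0.669).

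Nnat and Gnas lie in imprinted regions of chromosome 2. Nnat, paternally expressed, encodes neuronatin, a small membrane protein of the endoplasmic reticulum. It was 4.25, 5.02 and 4.98 in the DMH, 4.37, 4.32 and 4.66 in the VMH and 4.52 and 4.49 in the Arc. DMH replicate 1 was the lowest of the 8 arrays and the other DMH arrays were the highest, so the groups overlapped. The second Nnat probe gave another picture, with 4.76, 4.71 and 4.90 in the DMH, 4.06, 4.05 and 4.22 in the VMH and 4.22 and 4.14 in the Arc. On that probe all DMH arrays lay above all others, by 0.68 ± 0.18 over the VMH and 0.61 ± 0.20 over the Arc (SE; limma over all probes, adjusted p = 0.164 and 0.218). The brightest probe gave 0.31 ± 0.25 and 0.25 ± 0.28 for the same differences (SE; limma, adjusted p = 0.645 and 0.698). With normexp background correction the brightest probe was picked anew and may be the other Nnat probe. Both differences were then 0.70, and neither passed (limma, adjusted p = 0.0635 and 0.0958).

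Gnas encodes the stimulatory G protein alpha subunit, through which receptors such as the melanocortin receptors raise cyclic AMP. The locus also makes other transcripts from further first exons, some from the maternal and some from the paternal copy. Gnas probe 4, the brightest, was 4.50, 4.89 and 4.999 in the DMH, 4.31, 4.47 and 4.40 in the VMH and 4.55 and 4.25 in the Arc. All DMH arrays lay above all VMH arrays, by 0.41 ± 0.20 (SE; 1.33-fold; limma, adjusted p = 0.441). Peg10 and Gnas were the 2 of 10 genes whose DMH and VMH arrays did not overlap, against 21.7% of all genes. For DMH and Arc this held for 2 of 10, Peg10 and Dlk1, against 33.4%. For VMH and Arc it held for 5 of 10, namely Ndn, Snrpn, Peg10, Dlk1 and Meg3, against 35%. With so few members, the first and second of these shares lie near or below the background and the last is 1 or 2 genes above it.

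The other Gnas probes had larger differences between DMH and VMH than the brightest one. Gnas probe 3 was 3.66, 3.14 and 3.30 in the DMH, 2.23, 2.42 and 2.30 in the VMH and 2.65 and 2.63 in the Arc. Gnas probe 1 was 2.78, 3.34 and 3.44 in the DMH, 2.43, 2.43 and 2.26 in the VMH and 2.91 and 2.65 in the Arc. On both probes the DMH arrays lay above the VMH arrays without overlap. The DMH minus VMH difference was 1.05 ± 0.21 for probe 3 and 0.82 ± 0.23 for probe 1 (SE; limma over all probes, adjusted p = 0.0722 and 0.196). Gnas probe 2, a dim probe with a wide scatter, was -1.44, 0.95 and -0.61 in the DMH, -2.85, -3.72 and -2.91 in the VMH and 0.61 and -3.45 in the Arc. Its DMH minus VMH difference was 2.80 ± 1.02 (SE; limma over all probes, adjusted p = 0.307), and its 2 Arc arrays lay near opposite ends of its range. All 4 Gnas probes thus had their DMH arrays above their VMH arrays, and none passed the test. With the mean of the 4 probes the DMH minus VMH difference was 1.27 (limma, adjusted p = 0.125). That mean takes in probe 2, which had the largest difference and the largest SE. It also joins probes listed on different transcripts, so it is not the level of 1 transcript.

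**Figure D3:**
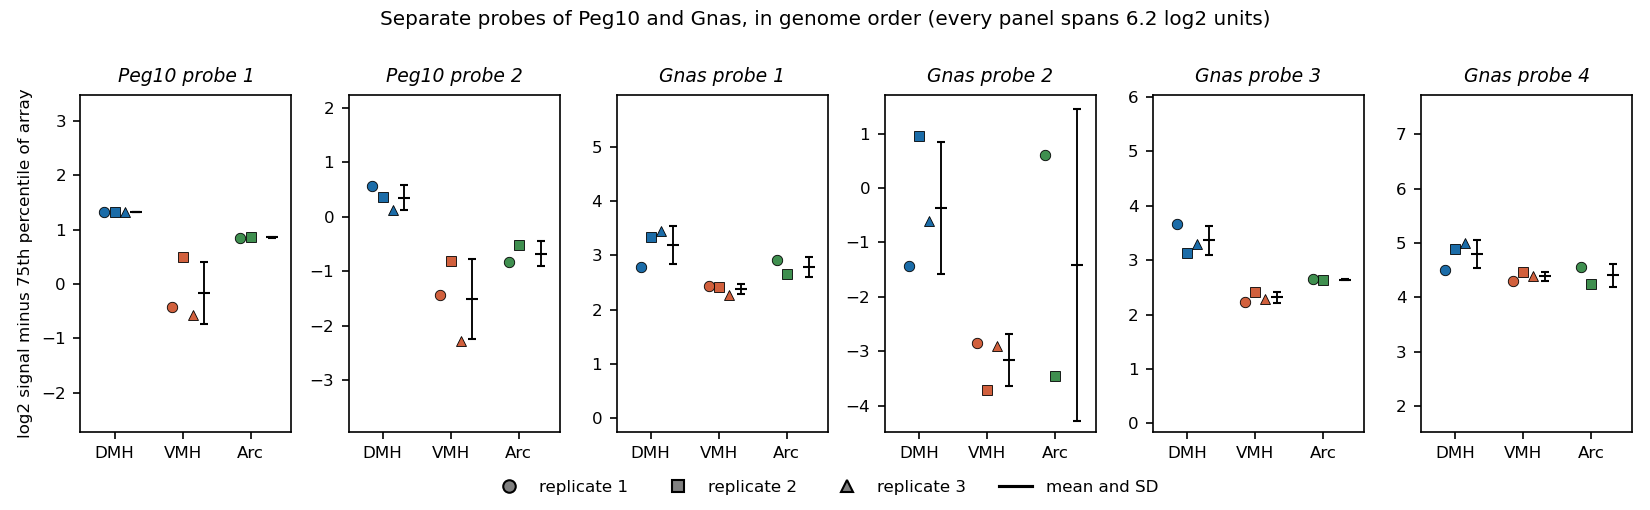
Log2 signal minus the 75th percentile of the array (vertical axis, 6.2 units in every panel) for the 2 Peg10 probes and the 4 Gnas probes in DMH, VMH and Arc. Points are arrays and bars are the mean and SD; in all 6 panels the 3 DMH points lie above the 3 VMH points.

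Cdkn1c, maternally expressed, encodes p57, an inhibitor of cyclin-dependent kinases that restrains cell division. It was -1.62, -3.45 and -0.092 in the DMH, 0.0021, -1.41 and -0.84 in the VMH and 0.50 and -0.45 in the Arc. The groups overlapped in every pair, and its residual SD of 1.19 was the widest of the 10 genes, against 0.20 for Gnas. DMH minus Arc was -1.75 ± 0.89 (SE; 95% interval -3.82 to 0.32; limma, adjusted p = 0.375), which leaves both a large difference and none possible. DMH replicate 2 had the lowest level of the gene on any array, and without it DMH minus Arc was -0.88 and DMH minus VMH, -0.97 over all arrays, was -0.11.

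No other gene is named for a profile like that of one of the 10, since the rule named such genes only for a member past the F test. The neighbours of the 10 genes in their clusters and other imprinted genes were described from a list of 77 genes, drawn up with earlier results of these data known. It includes genes whose imprinting is known only in some tissues, such as the placenta. Of the 77, 71 had a probe of that name and 60 were measured, 57 of these well above background on every array. The F test called 3 of the 60, Asb4, Th and Htr2a, against 1.68% of all genes, and 11 had an unadjusted p under 0.05, against 17.7%. In DMH against VMH, 2 were higher (0.441% of all genes) and 1 lower (0.788%). In DMH against Arc none passed in limma (0.416% of all genes). In VMH against Arc, 1 was higher (0.66%) and 2 were lower (0.317%). An unadjusted p under 0.05 was met by 13 of the 60 in DMH against VMH, 7 in DMH against Arc and 9 in VMH against Arc, beside 13.2%, 16.6% and 14.2% of all genes. The median difference over the 60 was -0.15 for DMH minus VMH, -0.11 for DMH minus Arc and 0.084 for VMH minus Arc.

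Asb4 lies in the same cluster as Peg10 and had the smallest p in the F test of all imprinted genes measured. It encodes an ankyrin repeat and SOCS box protein, a class of substrate adaptors for ubiquitin ligases. It was 3.76, 4.15 and 4.25 in the DMH, 1.58, 1.46 and 1.35 in the VMH and 4.88 and 4.75 in the Arc. The VMH arrays lay far below all others, and the Arc arrays lay above the DMH arrays. Asb4 was higher in the DMH than in the VMH by 2.59 ± 0.20 (SE; 6.01-fold; limma, adjusted p = 0.00269) and lower in the VMH than in the Arc by 3.35 ± 0.22 on the log2 scale (SE; limma, adjusted p = 0.00155). DMH minus Arc was -0.76 ± 0.22 (SE; limma, adjusted p = 0.166). Both calls were also made in each of 18 alternative settings.

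The cluster of Peg10 holds, in the order of RefSeq genes on chromosome 6, Calcr, Tfpi2, Casd1, Sgce, Peg10, Ppp1r9a, Pon3, Pon2 and Asb4. Of its 6 measured genes other than Peg10, 1 was called in DMH against VMH, where 1.23% of all genes were, and 5 had a positive difference, as did 12560 of 27419 genes. Calcr, the calcitonin receptor gene at the other end, falls outside the rule for naming and was picked after its values were seen. It was -0.72, -1.94 and -1.71 in the DMH, -3.38, -3.18 and -3.46 in the VMH and -1.87 and -2.88 in the Arc, with a DMH minus VMH difference of 1.88 ± 0.38 (SE; limma, adjusted p = 0.0726). Sgce, which encodes epsilon-sarcoglycan and is the direct neighbour of Peg10, was 2.84, 3.65 and 3.20 in the DMH, 2.20, 3.63 and 3.54 in the VMH and 2.68 and 3.999 in the Arc. Its DMH minus VMH difference was 0.11 ± 0.49 (SE; limma, adjusted p = 0.946), and it too was picked after its values were seen.

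**Figure D4:**
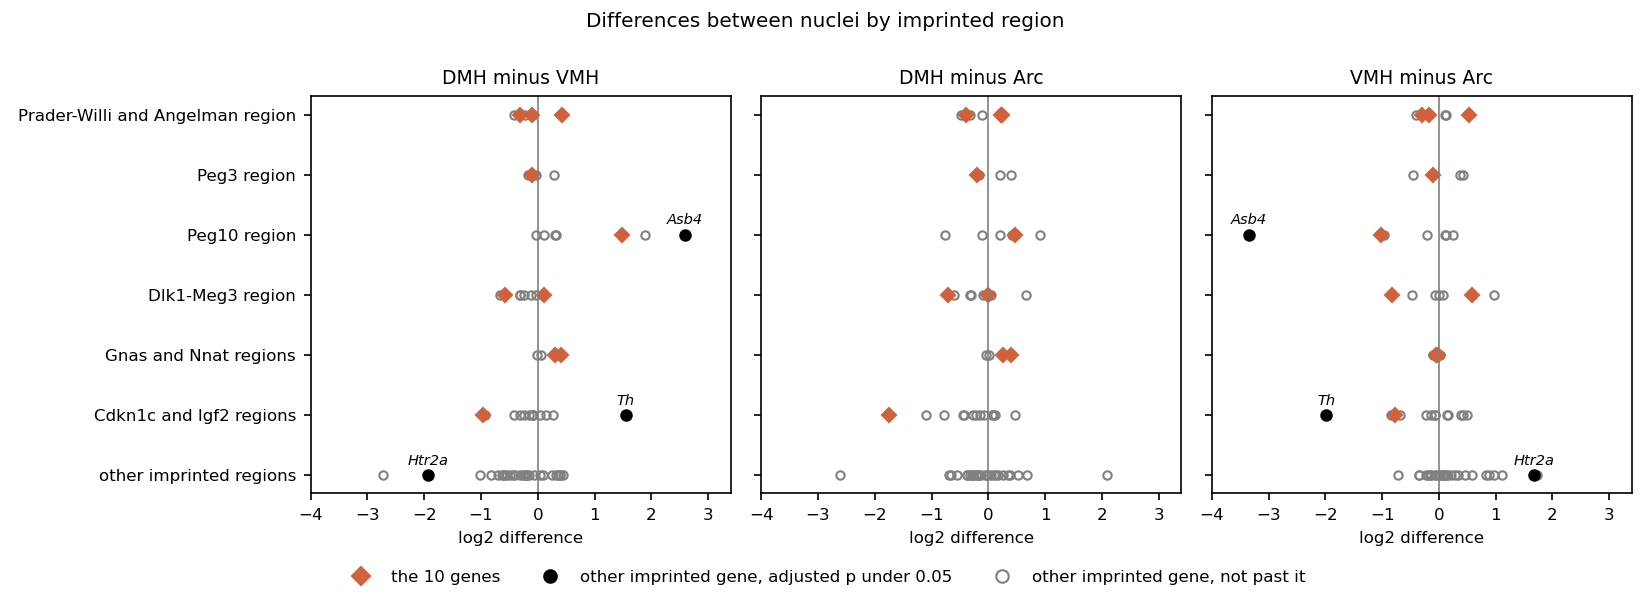
Log2 difference between nuclei (horizontal axes; DMH minus VMH, DMH minus Arc and VMH minus Arc) for the 10 genes (diamonds) and 60 other imprinted genes (circles), by region. Filled circles, with names, are genes past an adjusted p of 0.05 in that comparison; no diamond passed, and Asb4 lies farthest from 0 of the named genes.

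Th, tyrosine hydroxylase, the rate-limiting enzyme of dopamine and noradrenaline synthesis, lies in the list of the region that holds Cdkn1c. It was 3.42, 3.70 and 3.99 in the DMH, 1.86, 2.54 and 2.08 in the VMH and 4.34 and 3.95 in the Arc. Th was higher in the DMH than in the VMH by 1.55 ± 0.26 and lower in the VMH than in the Arc by 1.99 ± 0.29 on the log2 scale (SE; limma, adjusted p = 0.0387 and 0.0258). Htr2a, a serotonin receptor gene of another region, was 0.20, -0.39 and -0.12 in the DMH, 1.51, 2.06 and 1.92 in the VMH and 0.30 and 0.015 in the Arc. Its DMH minus VMH difference was -1.94 ± 0.24 and its VMH minus Arc difference 1.67 ± 0.27 (SE; limma, adjusted p = 0.0137 and 0.0392). These calls were less stable than that of Asb4: of 18 alternatives, 11 and 6 lost those of Th and 5 and 10 those of Htr2a.

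In the other clusters no neighbour passed the F test. In the Dlk1 and Meg3 cluster, 0 of 6 were called, and the smallest p-values were those of Wdr25 and Mirg (limma, adjusted p = 0.143 and 0.207). Mirg, a noncoding RNA gene that hosts microRNAs, was 3.29, 3.33 and 3.61 in the DMH, 4.31, 3.89 and 4.04 in the VMH and 3.59 and 3.42 in the Arc. As for Meg3, the VMH arrays of Mirg lay above both Arc arrays, and for Mirg they also lay above all DMH arrays. Of the Prader-Willi region list 0 of 3 were called, with Ipw and Peg12 nearest (limma, adjusted p = 0.367 and 0.412). Of the Peg3 list 0 of 3 were called, with Zim1 and Usp29 nearest (limma, adjusted p = 0.472 and 0.629). Blcap and Mcts2, both measured genes of the Nnat and Gnas list, had an adjusted p of 0.963 and 0.999 in limma. These lists were short, so a count of 0 says little about the clusters.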

How the data were processed

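RNA from 8 pools of neurons was labelled with Cy5 and hybridised to 1-colour Agilent arrays of the same slide, read in 1 scan. The authors' deposited values used here are red-channel spot intensities as processed by Agilent Feature Extraction 11.5.1.1, with spatial and multiplicative detrending switched on, per the file headers. They were not normalized between arrays. The deposited values of the whole series could not be interpreted and were not used.

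Each log2 intensity had the 75th percentile of the 59305 non-control spots of its array subtracted. Outlier spots were dropped and spots of a probe averaged. Probes were kept if they were well above background throughout at least 1 nucleus (41502 of 55681), and the brightest probe stood for a gene (27435 genes, 27419 tested). A mean per nucleus was fitted over all 8 arrays in R 4.3.3, using limma 3.58.1 and data.table (version 1.17.8), with 5 residual and 2.78 prior degrees of freedom, an F test, each pair of nuclei and Benjamini-Hochberg adjustment over all genes at 0.05. The fit was tested on simulated data. Arrays give no counting error, and their number limits the precision.

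The 10 genes and all lists were chosen with earlier results of these data known. By rule the text names all 10. Of the other imprinted genes it names those past the F test, at most 4 a region, or else the 2 with the smallest p. It also names the 2 genes most like each member past the F test. All 10 genes matched RefSeq symbols (GRCm38.p6, used for names and neighbours only); probe sequences and mm9 positions are those in the files. The sequence of 1 Meg3 probe is not reported here. Alternatives were normexp correction with offset 50, quantile normalization, a percentile over detected probes, 2 other filters, each probe alone, the mean of a gene's probes, a trended and robust eBayes, a term for replicate number or slide row, and each array left out.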

Additional observations from a re-analysis of the deposited data

How the results depend on the processing

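Under the 18 alternatives, 514 of 540 differences of the 10 genes kept their direction and stayed on the same side of the threshold, 21 turned sign and 5 newly passed. None of those that turned had passed a test. The 5 were Peg10 in DMH against VMH, so that 1 of the 10 genes was called instead of 0 with normexp correction (adjusted p = 0.0240), only probes detected on all arrays (0.0485), trended and robust eBayes (0.0330), the mean of a gene's probes (0.0479) and without VMH replicate 2 (0.0248). Its difference ranged from 1.29 to 1.81 over all alternatives (limma, adjusted p = 0.0240 to 0.182). The F test called 1 of the 10 with normexp correction, with trended and robust eBayes and without VMH replicate 2. Leaving out 1 array gave 0 to 1 of the 10 genes in the F test and in DMH against VMH, and 0 in the other pairs. The cause of these changes was not tested.

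Counts over all genes, given as F test, DMH against VMH, DMH against Arc and VMH against Arc, were 462, 337, 114 and 268. They became 725, 497, 233 and 408 with normexp correction, 262, 200, 41 and 164 with no filter, 571, 417, 207 and 329 with the mean of a gene's probes, 576, 407, 180 and 325 for each probe alone, 710, 463, 224 and 395 with trended and robust eBayes, and 230, 167, 55 and 164 with slide row as a term. With the replicate block they were 170, 163, 32 and 74. Without 1 array they ranged from 150 to 518, 115 to 289, 38 to 245 and 93 to 342; a left-out array also leaves fewer samples. Of the genes called between DMH and Arc, 46.8% were higher in the DMH with normexp correction, against 57.9% in the analysis as reported.

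Signs turned for differences close to 0. Meg3 in DMH minus Arc was 0.052 with normexp correction, 0.035 with quantile normalization, 0.013 with the replicate block and 0.059 with slide row, and -0.15 to 0.23 without 1 array. Ndn in DMH minus VMH was 0.0026 and Peg3 0.035 with quantile normalization, and Peg3 was 0.0002 with the mean of its probes. Magel2 in VMH minus Arc was 0.015 with the replicate block. Without 1 array, DMH minus VMH ranged from -0.25 to 0.064 for Peg3, from -0.32 to 0.059 for Ndn and from -0.19 to 0.36 for Dlk1. DMH minus Arc for Magel2 ranged from -0.14 to 0.48. VMH minus Arc ranged from -0.16 to 0.14 for Gnas, -0.16 to 0.011 for Nnat, -0.22 to 0.029 for Peg3 and -0.40 to 0.039 for Magel2.

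No label links a replicate number to an animal, so the main fit was not paired. In their deviations from the nucleus means, arrays of the same number in different nuclei correlated at 0.072 to 0.18. Of 7 such pairs, 2 exceeded 0.1. In 14 of 14 cases an array correlated best with its own number in another nucleus. These cases are the 7 pairs seen from either side, and the deviations of the 2 Arc arrays mirror each other. The 14 are therefore not independent. By these correlations arrays of the same number shared a weak common pattern, and its source was not tested. With the replicate block, as in the main fit, 0 of the 10 genes were called. Peg10 in DMH minus VMH was then 1.49 (limma, adjusted p = 0.109). The limits are few arrays, 2 of them for Arc, nuclei that differ in overall brightness, and a wide spread for some probes, such as that of Cdkn1c.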
